A study of Mus musculus with 9 samples.

Results

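The gene group described here is the family of serine/arginine-rich (SR) splicing factors around SRSF1, together with SR-like proteins, other proteins with arginine/serine (RS) domains, the kinases that phosphorylate RS domains and the receptor that imports them into the nucleus. The 36 genes were chosen by symbol, and all 36 were found among the 53715 gene identifiers of the count table and passed the filter on low counts, with 17351 genes tested in all. SRSF1KO thymocytes carried the genotype written Srsf1fl/flLckcre/+, in which Cre recombinase is placed under Lck, a kinase gene of the T lineage, and removes floxed Srsf1. The labels do not say which Lck promoter was used, nor whether the animals labelled WT carried floxed alleles or Cre. All donors were C57BL/6 mice of 6 to 8 weeks, and the cells were thymocytes sorted by flow cytometry as TCRβ+CD69+CD24+CD4+CD8+, which takes double-positive thymocytes that bear the receptor and its early activation marker CD69. Bulk RNA-seq libraries were made by Smart-seq2, which amplifies full-length cDNA of polyadenylated RNA, from 2 SRSF1KO and 3 WT samples. The series also has 4 CLIP-seq samples, 2 for SRSF1 and 2 for IgG, which were not analysed here.

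SR proteins bind exonic enhancer sequences through RNA recognition motifs and contact other splicing factors through the RS domain, which helps U1 and U2 particles to find the splice sites. SRPK kinases phosphorylate the RS domain in the cytoplasm, transportin 3 carries the phosphorylated protein into the nucleus, and CLK kinases release it from nuclear speckles. Many SR genes limit their own transcript and those of their relatives by splicing in a poison exon that sends the mRNA to nonsense-mediated decay. Counts per gene do not separate productive from poison-exon transcripts.

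Total counts per library ran between 36026006 and 38985285, and the 36 genes took 0.880% to 0.936% of them. Srsf12 had the fewest counts of the group, 80 and 363 in SRSF1KO replicates 1 and 2 and 247 to 504 in WT. The labels do not say whether replicates came from separate animals, so the spread behind each p-value is that among these 5 samples and may be technical. Counts of Xist and Ddx3y split the libraries by sex pattern within each group, with SRSF1KO replicate 1 and WT replicate 2 of male pattern and the other 3 of female pattern. A pattern was taken as male where Ddx3y exceeded Xist. WT replicate 2 had 1369 Xist counts beside 5803 of Ddx3y, so its pattern was less clear than that of SRSF1KO replicate 1 (282 and 5699). The genes of the gate were all detected, with Cd4 at 1174 ± 78.4 CPM (counts scaled to the library total) in SRSF1KO and 860 ± 84.5 CPM in WT, and Cd8a at 1639 ± 256 CPM in SRSF1KO and 1664 ± 156 CPM in WT (SD, n = 2 and n = 3). The list of 11 gate genes also holds Trac, Cd3d, Cd3e and Cd3g, which were not themselves sorted on. Of the 11, 4 had a log2 fold change above 0 and 7 below, from −0.47 to 0.45. Groups did not overlap for 1 higher and 3 lower (all genes tested: 15.2% and 17.8%). DESeq2 called 1 higher and 0 lower (all genes tested: 2.21% and 3.65%), and edgeR called 0. Sums of a pair of stage lists did not overlap between groups: 12 maturation genes summed to 4089 and 5547 CPM in SRSF1KO against 9063 to 9522 CPM in WT, and 10 pre-selection genes to 4932 and 3339 CPM in SRSF1KO against 2276 to 2732 CPM in WT. Like the other gene lists, both were chosen with earlier results of these data known, so their counts are a description and no test. All 12 maturation genes had a log2 fold change below 0. Of them edgeR called 6 lower and DESeq2 9 (all genes tested: 0.213% and 3.65%). Of the 10 pre-selection genes, 8 were above 0 and 2 below, from −0.67 to 0.90. For these edgeR called 0 and DESeq2 4 higher (all genes tested: 2.21% higher with DESeq2). The 17 proliferation genes summed to 2414 and 2415 CPM in SRSF1KO and 2206 to 2473 CPM in WT. Single genes of this list moved both ways, with log2 fold changes of −0.33 to 0.77. Groups did not overlap for 5 higher and 6 lower (all genes tested: 15.2% higher, 17.8% lower). DESeq2 called 3 higher and 0 lower (all genes tested: 2.21% and 3.65%), and edgeR called 0.

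Levels are CPM after TMM normalisation, which scales libraries so that most genes are level. They were not corrected for gene length, so they show differences between samples, and sums or ranks over genes reflect reads and not molecules.

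**Figure D1:**
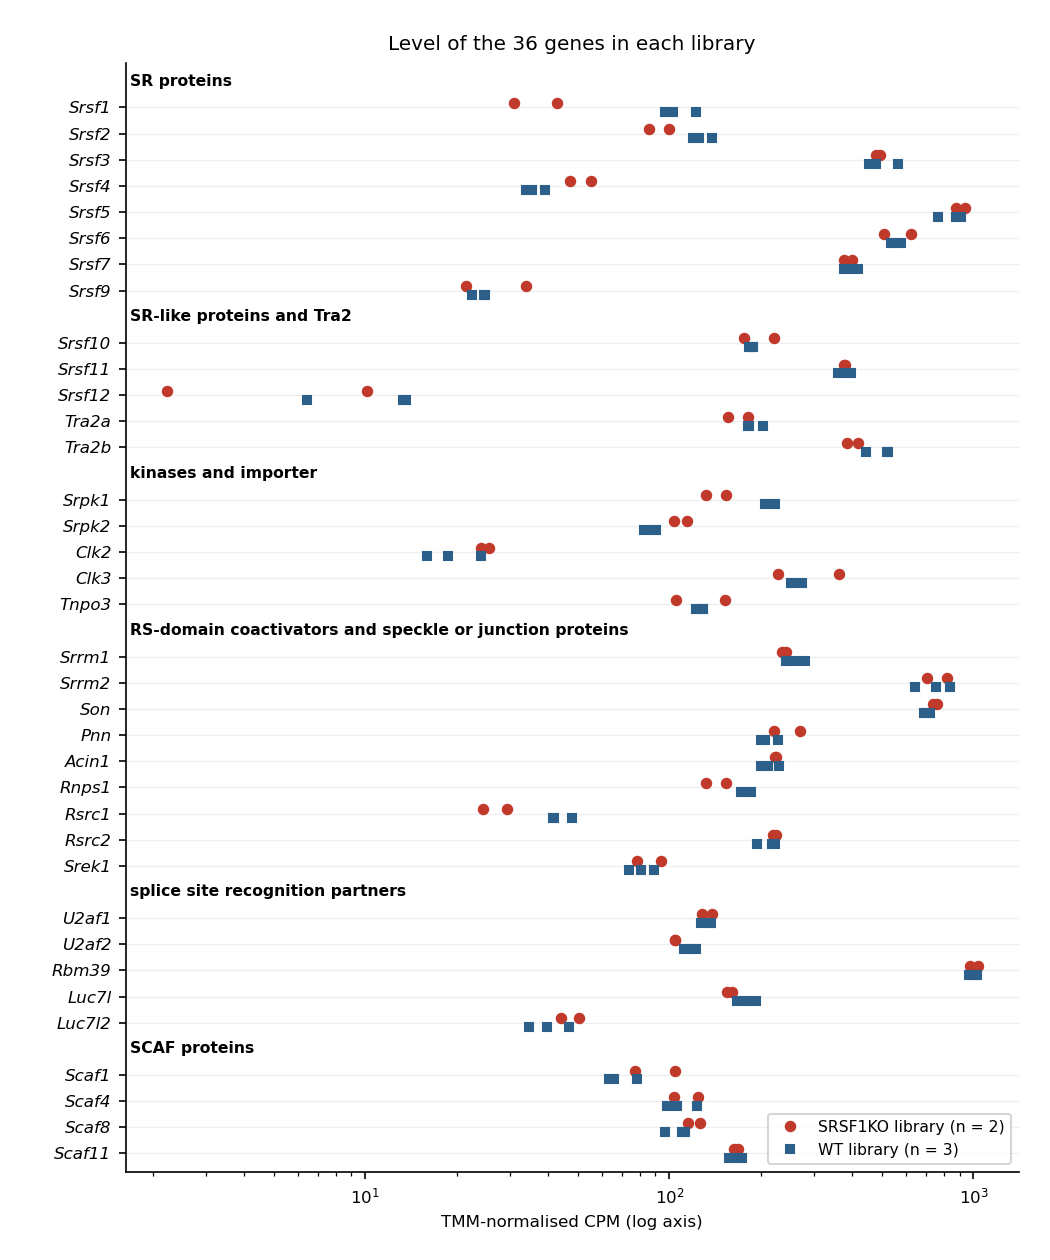
Level of each of the 36 genes in each library, in TMM-normalised CPM on a log axis, with SRSF1KO libraries as circles above WT libraries as squares. For Srsf1 the SRSF1KO circles (42.6 and 30.9 CPM) sit apart from the WT squares (96.9 to 122.7 CPM), while most other rows overlap or lie side by side.

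Srsf1 itself (ENSMUSG00000018379.17, GRCm38 chromosome 11, 88046499 to 88053757) stood at 42.6 and 30.9 CPM in SRSF1KO replicates 1 and 2, against 96.9, 122.7 and 103.1 CPM in WT replicates 1, 2 and 3. Both SRSF1KO libraries lay far below every WT library. The mean fell by 65.8%, with 36.8 ± 8.25 CPM in SRSF1KO against 107.5 ± 13.5 CPM in WT (SD, n = 2 and n = 3). By edgeR's quasi-likelihood test the log2 fold change was −1.55 ± 0.19 (SE), with an adjusted p of 0.0483 and a 95% interval of −1.99 to −1.11. Omitting any 1 of the 5 libraries raised the adjusted p to between 0.0509 and 0.220, with a log2 fold change of −1.80 to −1.32. Reads were counted over the whole gene, so reads of cells that kept Srsf1 and of the undeleted part of a deleted allele cannot be told apart, and in these bulk samples fewer cells with a transcript and less RNA per cell cannot be told apart either.

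Around the lost Srsf1, the rest of the group showed no rise that passed the test. With edgeR, 0 of the 36 genes were higher and 1, Srsf1, was lower at an adjusted p under 0.05, a share of 2.78% against 0.265% of all genes tested (0.0519% higher, 0.213% lower) and 0.558% of the 6988 genes at like level. Like level means an average of 21.6 CPM or more, the lowest in the group apart from Srsf12. At an unadjusted p under 0.05, 2 were higher and 6 lower, 22.2% of the group against 14.4% of all genes tested and 21.2% at like level. DESeq2 called 0 higher and 4 lower (11.1%, against 5.86% of all genes tested, 2.21% higher and 3.65% lower, and 9.34% at like level), namely Srsf1, Srsf2, Srpk1 and Rsrc1. The limma-voom test called Srsf1 alone of the 36, and 0.478% of all genes tested. Groups did not overlap for 13 of 36 genes, 5 higher and 8 lower, a share of 36.1% against 32.9% of all genes tested (15.2% higher, 17.8% lower) and 38.7% at like level. The shares at an unadjusted p and without overlap were near those of genes at like level. Srsf1 was the gene targeted for deletion, so its own call says nothing of the rest. Without Srsf1 the shares were 0% with edgeR, 8.57% with DESeq2, 20% at an unadjusted p and 34.3% without overlap. Each of these lay below the share at like level.

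Most members lay close to their WT level. The median log2 fold change was 0.03 for the 36 genes, 20 of them above 0, and −0.01 for all genes tested, of which 49.4% were above 0. Of the 35 genes other than Srsf1, 25 had a log2 fold change within 0.25 of 0 in either direction (71.4%, against 39.3% of all genes tested and 60.8% at like level). Within 0.5 lay 31 (88.6%, against 62.2% of all genes tested and 88.1% at like level), a share near that at like level. A p above the threshold does not show that a gene was level: the 95% interval lay wholly within 0.5 in either direction for 22 of the 35, and wholly within 1, a 2-fold change, for 33.

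The genes of the group are spread over 14 chromosomes, with 8 of 36 on chromosome 17 (22.2%, where 4.92% of tested genes with coordinates lie), among them Srsf3, Srsf7, Srpk1 and U2af1. In the RefSeq table of GRCm38.p6, 14 members overlap another gene, 10 of them a protein-coding one, so their counts are less certain. Srsf1 and Srpk1 overlap none, while Srsf2, Srsf4, Srpk2 and Rsrc1 are among the 14. Rsrc1 overlaps the protein-coding Shox2 on the opposite strand. Srsf4 overlaps the noncoding Gm12992 on the opposite strand, which stood at a log2 fold change of 0.28 (edgeR adjusted p = 0.942). For 33 members the sequence of the 250 bases before the annotated start was at hand. These windows were rich in CpG: the ratio of observed to expected CpG was above 0.6 in 30 of 33 (90.9%), against 63.7% of 10874 tested genes. Both strands were searched for CCAAT, read by the factor NF-Y, and for the GC box of SP factors, spelled GGGCGG. The TATA box was searched as TATAAA, the core of ETS factor sites as CCGGAA, and an E2F-like string as TTTGGCGC or as TTTCCCGC, and none of these strings contains another. CCAAT was in 39.4% of members' windows, 36.4% of tested genes' and 34.5% of all 27025 windows. The GC box was in 63.6%, 56.0% and 33.0% in the same order, the TATA box in 6.06%, 6.85% and 13% of them, the ETS core in 33.3%, 22.0% and 12.3%, and the E2F-like strings in 15.2%, 2.46% and 1.35%. The 5 members with an E2F-like string were Srsf1, Srsf10, Tra2b, U2af1 and Scaf4. The GC box, the ETS core and the E2F-like strings contain CG, and the shares were not matched for CpG content. A match is a description of letters and not a binding site.

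The windows of the 4 genes that DESeq2 called lower are shown because these are the members any count model called, and they do not share a layout of motifs. Each is written 5′ to 3′ on the gene's own strand, from RefSeq on GRCm38.p6, with the searched motifs in capitals. That of Srsf1 is chr11:88047123-88047372 (plus strand), of Srsf2 chr11:116853095-116853344 (minus), of Srpk1 chr17:28622522-28622771 (minus) and of Rsrc1 chr3:66985412-66985661 (plus). Those of Srsf1, Srsf2 and Rsrc1 lie inside the listed span of the gene, downstream of its outermost 5′ end.
Srsf1: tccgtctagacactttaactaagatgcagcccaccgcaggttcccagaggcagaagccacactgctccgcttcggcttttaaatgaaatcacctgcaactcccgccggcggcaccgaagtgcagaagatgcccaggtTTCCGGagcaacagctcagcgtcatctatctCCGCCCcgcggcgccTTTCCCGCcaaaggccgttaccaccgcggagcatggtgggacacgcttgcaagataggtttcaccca
Srsf2: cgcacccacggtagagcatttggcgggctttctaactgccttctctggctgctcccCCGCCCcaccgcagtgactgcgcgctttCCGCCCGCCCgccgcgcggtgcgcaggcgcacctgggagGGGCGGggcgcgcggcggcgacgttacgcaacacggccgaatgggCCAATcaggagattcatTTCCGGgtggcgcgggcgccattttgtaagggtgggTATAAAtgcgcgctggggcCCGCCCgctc
Srpk1: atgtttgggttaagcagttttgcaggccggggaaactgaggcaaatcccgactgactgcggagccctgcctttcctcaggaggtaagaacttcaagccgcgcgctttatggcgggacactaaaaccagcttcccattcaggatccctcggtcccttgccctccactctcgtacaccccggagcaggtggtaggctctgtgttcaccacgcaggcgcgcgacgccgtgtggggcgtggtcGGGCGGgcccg
Rsrc1: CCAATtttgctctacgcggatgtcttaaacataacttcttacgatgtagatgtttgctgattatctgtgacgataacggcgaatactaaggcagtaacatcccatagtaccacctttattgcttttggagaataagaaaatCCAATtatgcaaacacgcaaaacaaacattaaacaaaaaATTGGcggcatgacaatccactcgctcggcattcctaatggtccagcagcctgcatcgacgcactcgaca
Srsf1 held 1 GC box, 1 ETS core and 1 E2F-like string with no CCAAT, and Srsf2 held 5 GC boxes, 1 CCAAT, 1 ETS core and 1 TATAAA. Srpk1 held 1 GC box alone, and Rsrc1, the window lowest in G and C (41.6%, against 58.8% to 69.6% in the other 3), held 3 CCAAT and no GC box.

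The SR proteins in the narrow sense are 8 genes. Srsf2, whose product binds exonic enhancers and takes part in transcription elongation, stood at 99.7 and 85.7 CPM in SRSF1KO, against 120.0, 124.7 and 138.2 CPM in WT. The groups did not overlap, and the SRSF1KO mean differed from WT by −27.4% (log2 fold change −0.46 ± 0.12, SE; edgeR adjusted p = 0.170; DESeq2 adjusted p = 0.0388). Over all alternatives tried the adjusted p of Srsf2 ran between 0.0388 and 0.517. Mfsd11 overlaps Srsf2 on the opposite strand, and with the strand setting of the counting not given their reads may be mixed, and Mfsd11 itself stood at −0.13 (adjusted p = 0.860).

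Srsf4, an SR protein with a long RS domain, was the SR gene with the largest positive log2 fold change. It stood at 55.1 and 47.3 CPM in SRSF1KO, against 35.4, 33.7 and 39.1 CPM in WT. Both SRSF1KO libraries were above every WT library, but the log2 fold change of 0.51 ± 0.16 passed with neither tool (edgeR adjusted p = 0.230, DESeq2 adjusted p = 0.0660), and its 95% interval ran from 0.13 to 0.88.

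Srsf5, the SR gene with most counts, stood at 936 and 873 CPM in SRSF1KO and at 878, 912 and 767 CPM in WT, so the groups overlapped (log2 fold change 0.09 ± 0.10, adjusted p = 0.789). Srsf3, the smallest SR protein and one that also acts in mRNA export, was at −0.04 (95% interval −0.30 to 0.22), Srsf6 at 0.03 (−0.23 to 0.28) and Srsf7, a zinc-knuckle SR protein, at −0.04 (−0.25 to 0.18). As folds, the 95% intervals of these 4 genes lay between 0.810 and 1.25. Srsf9, a close relative of SRSF1 with the same order of domains, averaged 27.6 ± 8.62 CPM in SRSF1KO (SD, n = 2) and 24.0 ± 1.26 CPM in WT (SD, n = 3). Its 95% interval was wider, −0.35 to 0.76, and SRSF1KO replicates 1 and 2 stood on either side of the WT range at 21.5 and 33.7 CPM. Gatc overlaps Srsf9 on the opposite strand, and their reads may be mixed. The log2 fold change was 0.20 for Srsf9 (edgeR adjusted p = 0.786) and 0.20 for Gatc (edgeR adjusted p = 0.836).

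Summed over the 7 SR genes other than Srsf1, the level was 2471 and 2554 CPM in SRSF1KO, against 2529, 2570 and 2369 CPM in WT. The SRSF1KO mean of 2513 ± 58.5 CPM was 0.939% above the WT mean of 2489 ± 106 CPM, less than 1 SD of either group. Srsf1 made up 1.69% and 1.2% of the counts of all 8 in SRSF1KO and 3.69%, 4.56% and 4.17% in WT. These sums weigh long transcripts more than short ones and are a description with no test. In CPM, the SRSF1KO mean minus the WT mean was −70.8 for Srsf1 and −34.9 for Srsf2, 52.4 for Srsf5 and 15.1 for Srsf4, of which only that of Srsf1 passed with edgeR.

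**Figure D2:**
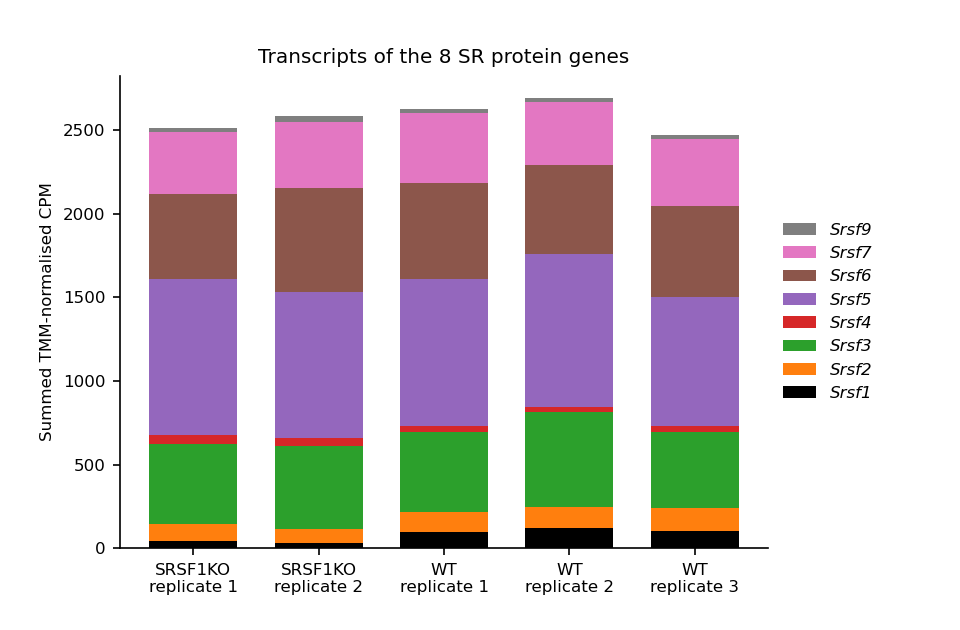
Stacked TMM-normalised CPM of the 8 SR protein genes in each library, SRSF1KO libraries left of WT libraries, with Srsf1 in black at the base. Srsf1 is 1.69% and 1.2% of the bar in SRSF1KO and 3.69% to 4.56% in WT, and the totals of the other 7 genes overlap between groups.

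Among the SR-like genes, Tra2b, whose fly relative transformer-2 directs sex-specific splicing and whose protein activates exons through purine-rich enhancers, stood at 382.6 and 418.7 CPM in SRSF1KO, against 518.3, 523.1 and 442.8 CPM in WT. The groups did not overlap, yet the log2 fold change of −0.30 ± 0.11 did not pass (edgeR adjusted p = 0.273, DESeq2 adjusted p = 0.155). Its paralog Tra2a was at −0.17 ± 0.11, with overlapping groups. Srsf10, which represses splicing when it is dephosphorylated, was at 0.09 ± 0.12, and Srsf11 at −0.01 ± 0.09. Srsf12, a scarce SR-like protein that counteracts SR proteins, stood at 2.22 and 10.2 CPM in SRSF1KO against 13.3, 13.7 and 6.41 CPM in WT. The value turned on the SRSF1KO library included: the log2 fold change of −0.85 ± 0.64 (adjusted p = 0.625) became −0.13 without SRSF1KO replicate 1 and −2.30 without SRSF1KO replicate 2.

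Srpk1 and Srpk2, SR protein kinases of the cytoplasm, stood on opposite sides of WT, and neither passed with edgeR. Srpk1 stood at 131.8 and 153.8 CPM in SRSF1KO, against 223.0, 207.0 and 209.1 CPM in WT. The means differed by −33.0% with no overlap, a log2 fold change of −0.58 ± 0.11 (SE; edgeR adjusted p = 0.0964, 95% interval −0.83 to −0.32). DESeq2 called it lower (adjusted p = 6.78e-04), as did edgeR without the low-count filter (0.0152) and with a floor of 5 CPM on the mean (0.0270), and over all alternatives the adjusted p ran to 0.437.

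Srpk2, the kinase of the same family, stood at 103.9 and 114.7 CPM in SRSF1KO and at 90.4, 88.8 and 82.5 CPM in WT. The groups did not overlap, and the log2 fold change of 0.33 ± 0.11 did not pass (edgeR adjusted p = 0.264, DESeq2 adjusted p = 0.121). Kmt2e overlaps Srpk2, so their reads may be mixed, and Kmt2e itself stood at 0.06 (edgeR adjusted p = 0.846). The ratio of Srpk2 to Srpk1 CPM, formed after the values were seen and not tested, was 0.789 and 0.746 in SRSF1KO against 0.405, 0.429 and 0.395 in WT. Since CPM is not length-corrected, only the shift between samples can be read from the ratio. Its separation of the groups was fixed, because neither gene overlapped and they stood on opposite sides of WT. Srpk3, the remaining SRPK gene, is not among the 36 and was added after its values were seen. It stood at 4.44 and 7.61 CPM in SRSF1KO and at 3.67, 3.41 and 2.44 CPM in WT, with no overlap (log2 fold change 0.92 ± 0.44, adjusted p = 0.389, not past the threshold).

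Of the nuclear kinases, Clk3 stood at 361.9 and 228.1 CPM in SRSF1KO and at 251.2, 252.7 and 272.7 CPM in WT, with the SRSF1KO libraries on either side of WT (log2 fold change 0.19 ± 0.18, adjusted p = 0.721). Clk2 was just above WT in both SRSF1KO libraries, at 25.4 and 24.1 CPM against 15.9 to 24.0 CPM, a log2 fold change of 0.34 ± 0.24 that did not pass (adjusted p = 0.586). Tnpo3, which encodes transportin 3, was split in the same way as Clk3, at 152.3 and 105.0 CPM in SRSF1KO against 121.9 to 128.6 CPM in WT.

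Of the RS-domain coactivators and the proteins of speckles and exon junctions, 9 genes in all, Rsrc1 had the log2 fold change farthest from 0. Rsrc1, an SR-related protein that takes part in recognition of the 3′ splice site, stood at 24.4 and 29.3 CPM in SRSF1KO, against 41.6, 47.9 and 41.8 CPM in WT. The means differed by −38.6% with no overlap (log2 fold change −0.70 ± 0.18; edgeR adjusted p = 0.150, DESeq2 adjusted p = 0.0127, and 0.0127 to 0.469 over all alternatives). Rnps1, a splicing activator deposited with the exon junction complex that promotes nonsense-mediated decay, stood at 132.4 and 153.0 CPM in SRSF1KO and at 174.4, 184.9 and 172.6 CPM in WT. Both SRSF1KO libraries lay below every WT library, at −0.31 ± 0.11 on the log2 scale (adjusted p = 0.261, not past the threshold).

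The binding partners of RNPS1 at the junction did not share that direction. Acin1 was at 0.07 ± 0.10 and Pnn at 0.21 ± 0.12, each with overlapping groups and neither past the test. Son and Srrm2 encode the large scaffold proteins of nuclear speckles. Srrm2 stood at 705.9 and 816.1 CPM in SRSF1KO and at 644.5, 835.6 and 751.0 CPM in WT, with wide overlap. Son was slightly above WT in both SRSF1KO libraries, at 738.9 and 760.8 CPM against 685.2 to 719.2 CPM, with a log2 fold change of 0.10 ± 0.08 (adjusted p = 0.652). Srrm1, the partner of Srrm2 in splicing coactivation, was at −0.12 ± 0.10, Srek1, which modulates other SR proteins, at 0.08 ± 0.14 and Rsrc2 at 0.07 ± 0.10.

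None of the 5 partners in splice site recognition passed with edgeR, DESeq2 or limma-voom. Rbm39, a relative of the large U2AF subunit, stood at 977 and 1035 CPM in SRSF1KO and at 1029, 1014 and 969 CPM in WT, a log2 fold change of 0.00 ± 0.08 with a 95% interval of −0.19 to 0.19. U2af1, the small U2AF subunit that reads the 3′ splice site and is contacted by SR proteins, was at −0.01 ± 0.10. U2af2, the large subunit, stood at 104.6 and 104.4 CPM in SRSF1KO, just below the WT range of 111.3 to 122.7 CPM, and did not pass (−0.17 ± 0.10, adjusted p = 0.520). Luc7l, a relative of a yeast U1 protein of the 5′ splice site, was likewise below WT in both libraries (−0.19 ± 0.10, adjusted p = 0.462), while its paralog Luc7l2 was at 0.23 ± 0.18 with overlapping groups.

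The SCAF genes encode proteins with RS-rich stretches that bind the tail of RNA polymerase II. Scaf11 stood at 168.8 and 162.9 CPM in SRSF1KO and at 173.8, 168.4 and 157.2 CPM in WT, with overlapping groups (−0.01 ± 0.10). Scaf4 was at 0.06 ± 0.14, and Scaf8, which acts with Scaf4 against premature transcript ends, at 0.18 ± 0.12, with both SRSF1KO libraries (115.0 and 125.7 CPM) above the WT range of 96.8 to 112.5 CPM. Scaf1 had the log2 fold change farthest from 0 of the 4, 90.7 ± 19.5 CPM in SRSF1KO and 69.1 ± 7.91 CPM in WT (0.39 ± 0.17, adjusted p = 0.353), and SRSF1KO replicate 1 at 77.0 CPM lay inside the WT range.

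**Figure D3:**
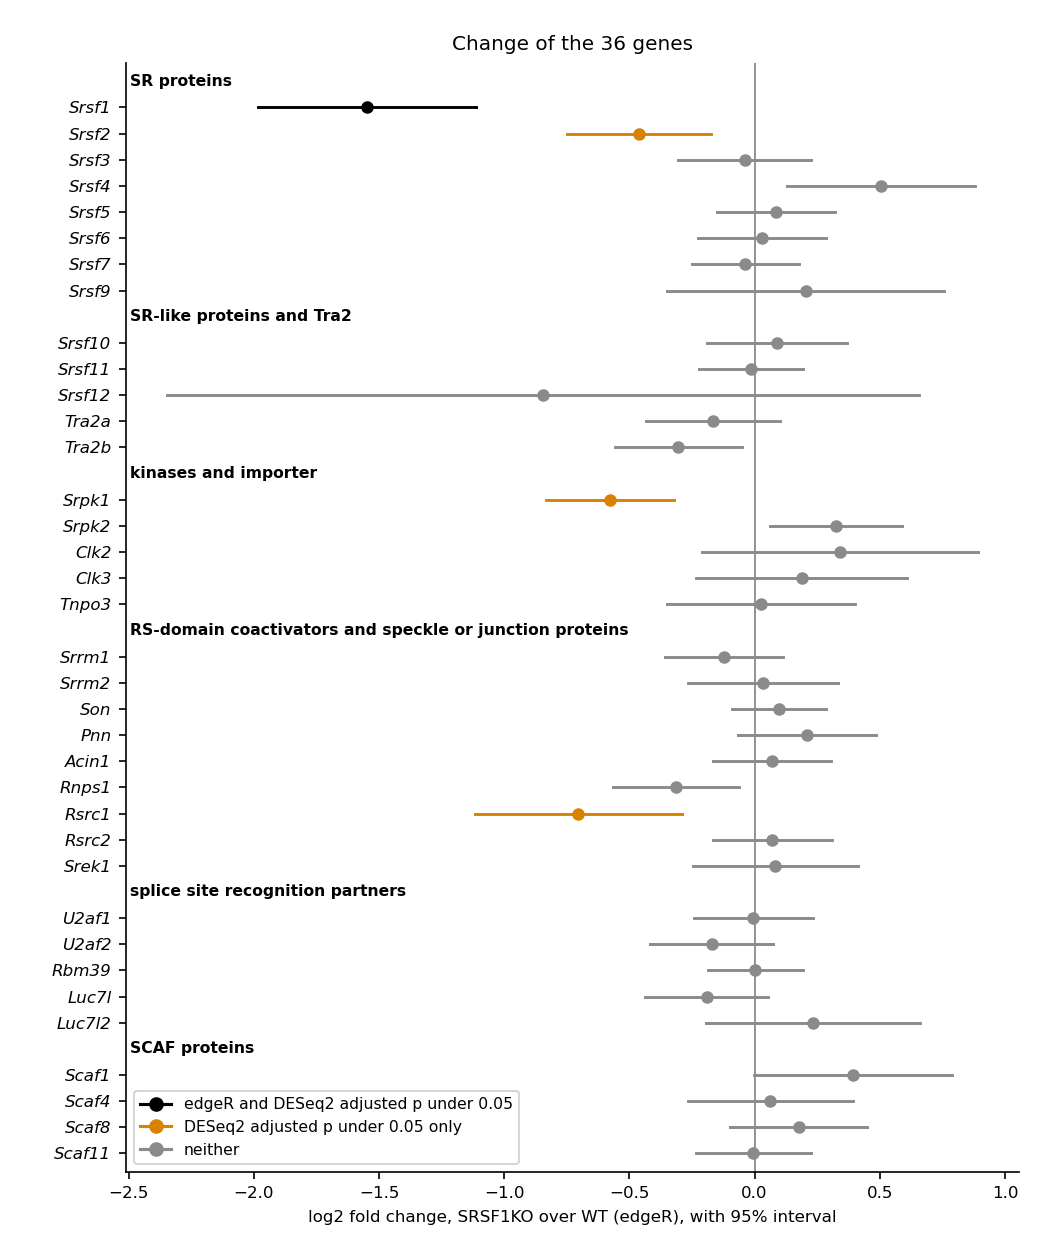
The log2 fold change of each gene, SRSF1KO over WT, from edgeR with its 95% interval as a line, grouped by role. Srsf1 alone passed with both edgeR and DESeq2, Srsf2, Srpk1 and Rsrc1 passed with DESeq2 alone, and the interval of Srsf12 is the widest.

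The groups of all 8 genes at an unadjusted p under 0.05 did not overlap, which fixes their sign in any subset of the libraries, so only the sizes are given here. Within the sex patterns, the SRSF1KO library of female pattern was set against 2 WT libraries and that of male pattern against 1. Differences in log2 CPM (female pattern first) were −1.68 and −1.52 for Srsf1, −0.58 and −0.32 for Srsf2, −0.49 and −0.65 for Srpk1, −0.50 and −0.96 for Rsrc1, −0.18 and −0.48 for Rnps1 and −0.19 and −0.45 for Tra2b. Srpk2 differed by 0.41 and 0.23 and Srsf4 by 0.34 and 0.70. In an edgeR fit with the sex pattern as a term, Srsf1 was at −1.62 (adjusted p = 0.0451) and the other 7 did not pass, with Srpk1 at −0.56 (adjusted p = 0.144). The sums of maturation and pre-selection genes given above moved with the same groups, and the part of cell stage in these 8 differences was not tested.

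**Figure D4:**
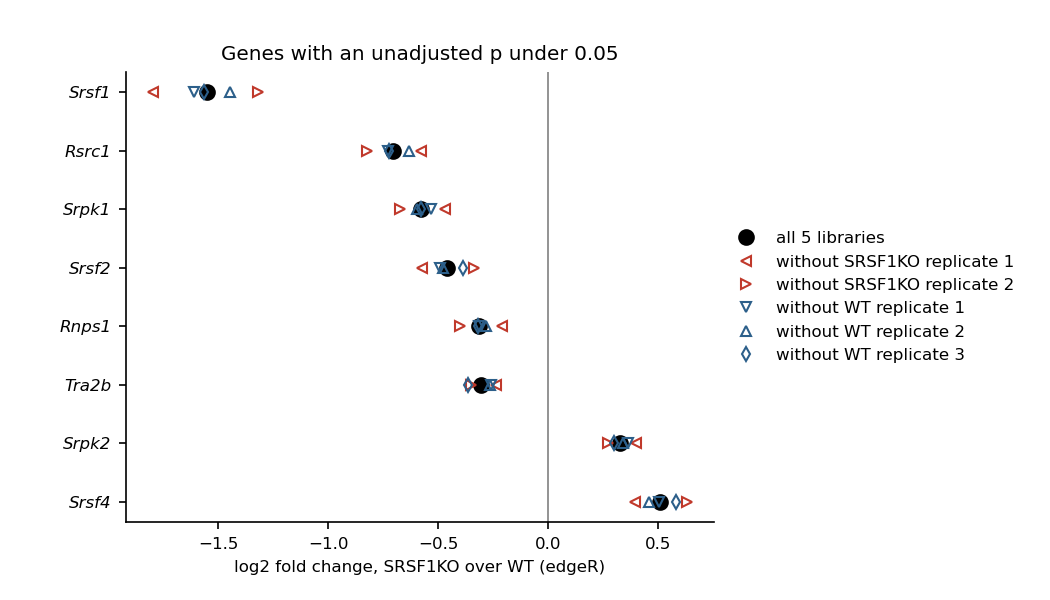
The edgeR log2 fold change of the 8 genes with an unadjusted p under 0.05, SRSF1KO over WT, with all 5 libraries (filled circles) and with each library left out (open symbols). Since the groups of these genes do not overlap, their sign was fixed and the plot shows the size only; the value of Srsf1 runs from −1.80 without SRSF1KO replicate 1 to −1.32 without SRSF1KO replicate 2.

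Markers of other cells were read for the same reason. Erythroid markers summed to 99.1 and 22.9 CPM in SRSF1KO and 2.67 to 12.7 CPM in WT, mostly globin reads, with Klf1 at 0 in both SRSF1KO libraries, and NK and γδ T cell markers to 135.1 and 141.2 CPM in SRSF1KO against 232.0 to 251.0 CPM in WT, mostly Nkg7. Sums overlapped between groups for myeloid cells (93.9 and 103.8 CPM in SRSF1KO, 78.6 to 95.1 CPM in WT), B cells (770.1 and 566.2 CPM in SRSF1KO, 499.8 to 574.4 CPM in WT) and thymic stroma (436.1 and 378.4 CPM in SRSF1KO, 393.1 to 489.1 CPM in WT). With edgeR none of these lists had a gene past the test. DESeq2 called 2 of 5 tested erythroid genes higher and 1 of 8 tested stromal genes lower. Of 7 tested NK or γδ genes it called 1 in each direction (all genes tested: 2.21% higher, 3.65% lower). The part of these cells in the values of the splicing genes was not tested.

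Beyond the 36 genes, a list of 45 other genes of the RS pathway, made with earlier results of these data known, gave 42 tested genes. With edgeR 1 was higher and 0 lower (2.38%, against 0.265% of all genes tested), and with DESeq2 2 were higher and 0 lower (4.76%, against 5.86%). At an unadjusted p under 0.05, 12 were higher and 2 lower, shares of 28.6% and 4.76% against 5.9% and 8.45% of all genes tested. In either direction that was 33.3%, against 14.4% of all genes tested and 21.2% of genes at 21.6 CPM or more, a level that some of the list do not reach. Rsrp1, an arginine/serine-rich protein gene, rose to 1267 and 1175 CPM in SRSF1KO, against 815, 756 and 816 CPM in WT (log2 fold change 0.62 ± 0.08, adjusted p = 0.0483); the adjusted p was 0.0494 to 0.220 with 1 library left out. Rbm25, a U1-associated splicing regulator, stood at 426.1 ± 25.5 CPM in SRSF1KO and 275.5 ± 11.5 CPM in WT (0.63 ± 0.09, edgeR adjusted p = 0.0568, DESeq2 adjusted p = 4.53e-07). Zranb2, a zinc-finger protein with an RS domain, was at 0.38 ± 0.12 and Arglu1 at −0.35 ± 0.11, neither past the test. Clk1 and Clk4, named after their values were seen because they complete the CLK family, were at 0.21 ± 0.11 and −0.07 ± 0.13.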

How the data were processed

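Raw read counts per gene were deposited by the authors for 5 RNA-seq libraries, with no normalisation in the table. The submitters' processing notes name HTSeq 0.6.1, Trim Galore, cutadapt 1.17 and mm10 among others, with no role for each. The RNA-seq aligner, annotation release and strand setting: not given in the sources used here. Identifiers were matched to symbols (53620 of 53715). Coordinates and promoter windows came from RefSeq on GRCm38.p6, which is mm10 in its patched form; no protein sequences or transcript lengths were used, so levels per length and RS content were not computed.

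SRSF1KO was compared with WT by edgeR 4.0.16 in R 4.3.3 (TMM, default filterByExpr filter, glmQLFit with robust estimation, glmQLFTest), with group as the only term and Benjamini-Hochberg adjustment over 17351 genes. The threshold was 0.05, tests were two-sided, and standard errors and 95% intervals were derived from the F statistic. The fits were tested on simulated counts with known changes in genes of 5 CPM or more. Of 2-fold changes, edgeR recovered 61%, DESeq2 77% and limma-voom 60%, so changes of that size can be missed. Of 4-fold changes they recovered 93%, 97% and 88%. False calls numbered 8, 58 and 10 with 16346 genes run. Alternatives were DESeq2 1.42.0, limma-voom (limma 3.58.1), 2 other scalings, 2 other filters, the replicate number as a block, the sex pattern as a term and each library left out in turn.

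Members, roles and gene lists were chosen with earlier results of these data known. All members are named; values in every library are given for Srsf1, for genes called by edgeR or DESeq2, for those with an unadjusted p under 0.05 and groups that do not overlap, and for the gene with most counts in each role class. Of the other RS pathway genes, those called and the 4 with the smallest p are named.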

Additional observations from a re-analysis of the deposited data

How the results depend on the processing

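The log2 fold change of Srsf1 kept its sign in all 13 alternatives, but its call was lost with DESeq2's size factors (−1.53, adjusted p = 0.0515) and with the replicate block (−1.59, adjusted p = 0.314), and in each fit without 1 library (−1.80 to −1.32). With the replicate block the members' median was −0.0044 and edgeR called 0 genes higher and 0 lower, 0 members and 0 other RS pathway genes, with 1640 genes at an unadjusted p under 0.05 of which 7 were members. Deviations of same-numbered libraries from their group means had correlations of −0.0458 and −0.0132. With 2 SRSF1KO libraries these deviations mirror each other, and same-numbered libraries differed in sex pattern, so the values cannot show or exclude pairing. The main fit did not pair the samples. Calls over all genes, higher and lower, were 9 and 37 as reported, 3 and 7 with DESeq2's size factors, 198 and 346 without the low-count filter, 143 and 233 with a floor of 5 CPM on the mean, 383 and 633 with DESeq2, 21 and 62 with limma-voom and 0 and 5 with the sex pattern as a term. Without 1 library they were 0 to 21 and 0 to 67. Members called lower numbered 0 with DESeq2's size factors, 2 with no filter and at 5 CPM (Srsf1 and Srpk1), 4 with DESeq2 and 0 without any 1 library; members called higher numbered 0 in every alternative. The count for other RS pathway genes was 0 with DESeq2's size factors and with the sex pattern, 2 with no filter, at 5 CPM, with DESeq2 and with limma-voom, and 0 to 1 without 1 library. The members' median lay between −0.018 and 0.033 without 1 library, and the ratio of summed SR levels without Srsf1 between 0.994 and 1.03. Of 41 named genes beside Srsf1, 26 kept their sign in all alternatives, which says nothing of stability for genes whose groups do not overlap. The other 15 had a log2 fold change of at most 0.204 in size. Srsf11, U2af1 and Scaf11 turned positive with DESeq2's size factors (0.0032, 0.013 and 0.012), upper-quartile scaling (0.0073, 0.017 and 0.016), the floor of 5 CPM (0.0049, 0.014 and 0.014) and DESeq2 (0.0032, 0.013 and 0.012), and U2af1 and Scaf11 with no filter (0.0015 and 0.00072). Tnpo3 turned negative with the replicate block (−0.023) and the sex pattern (−0.037), and Rbm39 with the block (−0.023). With 1 library left out the log2 fold change ran from −0.093 to 0.058 for Srsf3, −0.11 to 0.17 for Srsf6, −0.077 to 0.0079 for Srsf7, −0.14 to 0.49 for Srsf9, −0.065 to 0.25 for Srsf10, −0.042 to 0.025 for Srsf11, −0.18 to 0.50 for Clk3, −0.27 to 0.29 for Tnpo3, −0.056 to 0.14 for Srrm2, −0.053 to 0.23 for Srek1, −0.058 to 0.066 for U2af1, −0.020 to 0.045 for Rbm39, −0.068 to 0.20 for Scaf4, −0.033 to 0.039 for Scaf11 and −0.23 to 0.099 for Clk4. The cause of these shifts was not tested. A fit with a single SRSF1KO library takes its spread from WT. Levels per length were not run, because no transcript or coding length was at hand.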
